A study of Cynara cardunculus with 36 samples.

Results

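The artichoke cultivar Green Queen (GQ) was set apart from 3 other cultivars by 100 gene models whose level in the heart of the flower head lay beyond that of every other cultivar on all 3 days of cold storage. Of these 100 members, 62 were higher in GQ and 38 were lower, out of 28632 gene models in the deposited tables, of which 21895 passed a filter on low counts. The members were chosen by measured values, the mean log2 CPM (read counts scaled to library size) of each cultivar on each day, with 4 of the 36 libraries left out. The gap of a gene model was its distance in log2 units between the GQ mean and the mean of the nearest other cultivar, on the day on which that distance was smallest. GQ had the highest mean on all days for 775 gene models and the lowest for 532. For 617 of these 1307, the mean over the 4 cultivars at day 7 and at day 14 lay within 0.7 log2 units of day 0, and the 100 with the largest gap were taken. The difference of GQ from the other cultivars is therefore a description throughout, without a test, in the 32 libraries that set membership.

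The study followed browning of globe artichoke, a thistle grown for its immature flower heads, in the cold. GQ and the cultivars Green Globe Improved (GGI), Imperial Star (IS) and Opal (OP) were grown in a field under GA treatment to bring forward flowering, so every library comes from treated plants. Heads were held for 48 h at 4 °C before day 0, and heart tissue was sequenced at days 0, 7 and 14 of cold storage. Each cultivar and day had 3 libraries, which the labels call biological replicates. All carry the same treatment label, for browning progression.

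As background, cultivars of a crop can differ in the level of a transcript through variants in a promoter or in a factor that acts on it, through a gene copy that one genotype has and another lacks, or through alleles that align poorly to a reference. Artichokes are highly heterozygous, and plants of a seed-grown cultivar can carry different alleles. Counts of reads alone cannot tell these apart, and none of them was tested here. None of the 28632 gene model identifiers was found among the 30275 genes of the RefSeq table for the species, so no name or function is given, and the labelled tissue was not checked against markers. In bulk tissue, fewer cells of a type and less RNA per cell cannot be told apart.

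Reads assigned to gene models ranged between 5.76 M and 54.5 M per library, with a median of 39.6 M. In 32 libraries, 9.39% to 16.0% of reads lay outside gene models. The share was 31.6% and 30.1% in GQ day 7 replicates 2 and 3, which were left out when the members were chosen, and 33.5% and 71.0% in GGI day 7 replicate 2 and OP day 7 replicate 1, which were not. The other libraries left out were replicate 1 of day 14 in GQ and replicate 1 of day 14 in GGI, whose levels went against their labels. GQ was represented by 3 libraries on day 0, 1 on day 7 and 2 on day 14, and the other cultivars by 26 libraries. Values below are CPM scaled by the trimmed mean of M-values (TMM), not per gene length, so they are compared between libraries and not between gene models.

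The gaps fell off steeply with rank. They ran down to 0.32 log2 units at rank 100 with a largest value of 6.13, and the median was 0.56. A gap of at least 1 log2 unit, which is 2-fold, was held by 28 members, 23 of them higher and 5 lower in GQ. A gap of at least 4 was held by 7 higher and 2 lower members, while 42 members had a gap under 0.5. The last member inside had a gap of 0.3236 and the first outside 0.3203, so the boundary falls within a continuum.

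**Figure D1:**
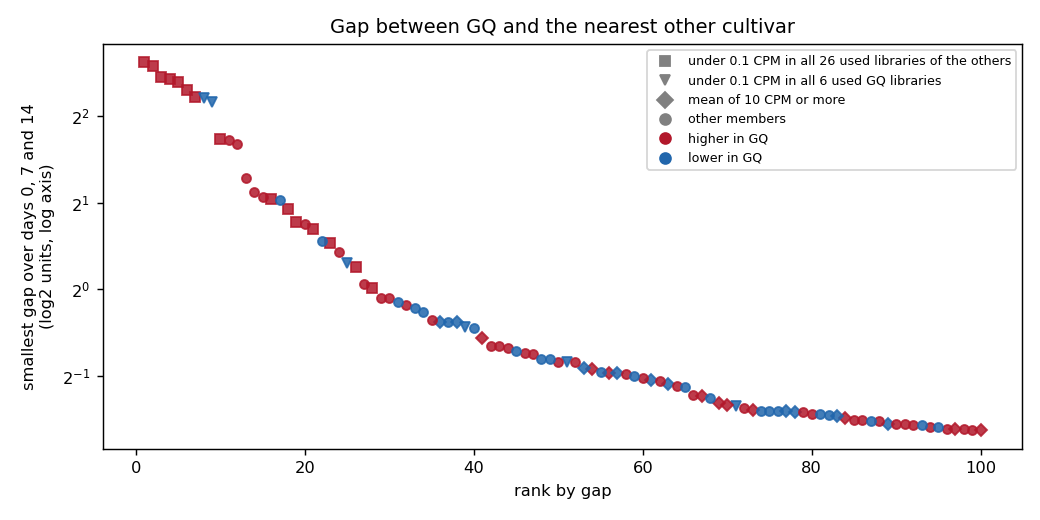
The smallest gap over days 0, 7 and 14 between GQ and the nearest other cultivar (log2 units, on a log axis) for each of the 100 members, ordered by rank. Red marks stand for the 62 members higher in GQ and blue for the 38 lower, and shapes for the level classes; squares and downward triangles, the gene models near 0 on one side, fill most of the first ranks, and those with a mean of 10 CPM or more lie between 0.32 and 0.77.

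Members had fewer reads than gene models at large. Their median level over the 32 libraries was 1.24 CPM, against 13.9 CPM over all gene models tested, and 46.0% of members averaged under 1 CPM, against 16.1% of all. Of the 62 higher members, 26 had 10 or more reads in fewer than 3 libraries of the other cultivars and thus passed the filter through GQ alone. All 6 used GQ libraries lay above all 26 of the other cultivars in 17 of the 62 higher members, a pattern held by 0.0959% of all gene models. They lay below all 26 in 2 of the 38 lower members, against 0.0228% of all. These counts follow from the choice of members. The count of lower members was 4 without OP day 7 replicate 1, and that of higher members was 17 with or without it.

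**Figure D2:**
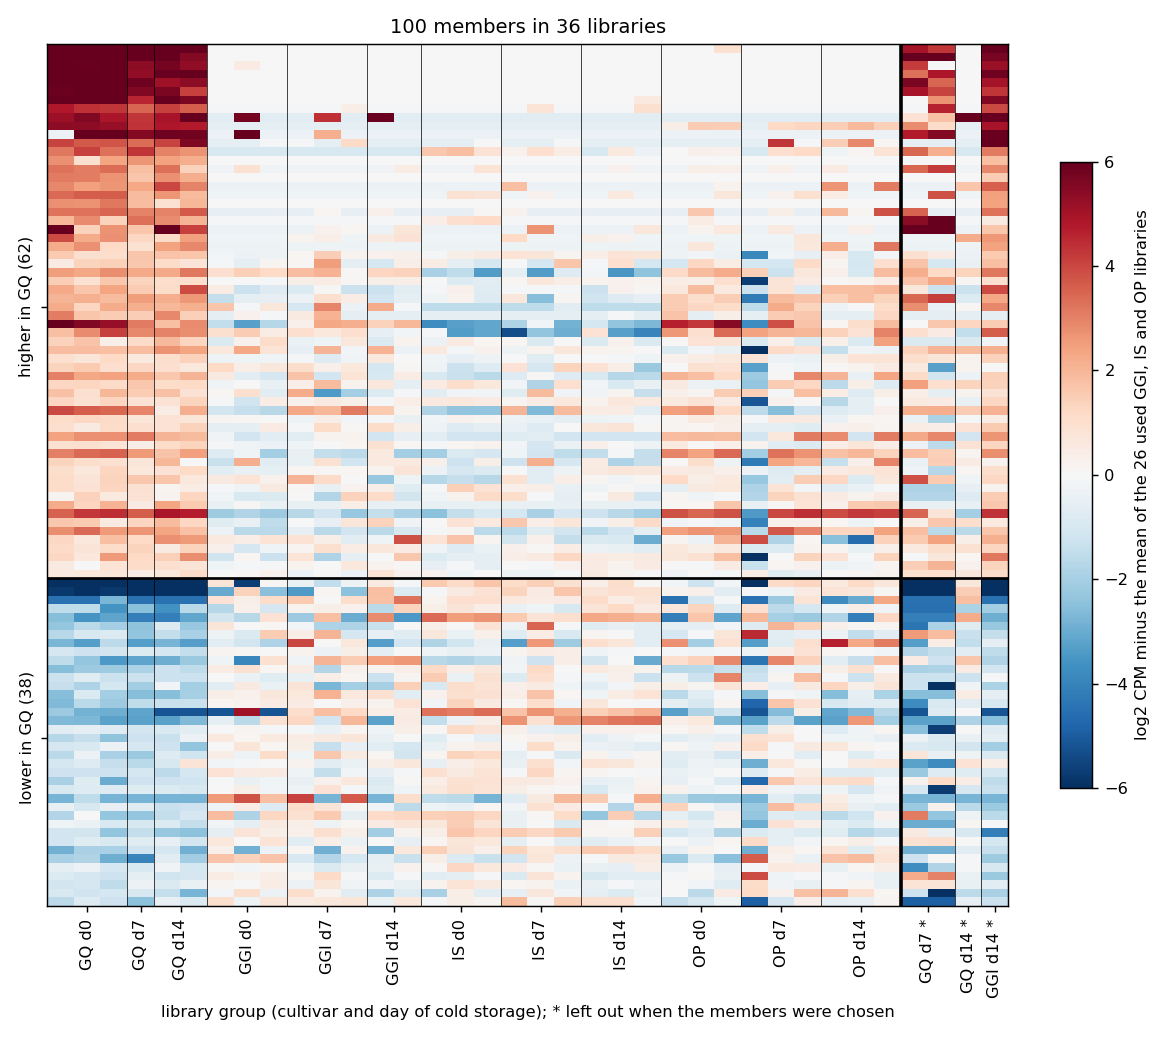
Level of each of the 100 members (rows, ordered by gap within each direction) in each of the 36 libraries (columns), as log2 CPM minus the mean of the 26 used libraries of GGI, IS and OP; colours saturate at 6 log2 units in either direction. GQ columns come first and the 4 libraries left out (marked *) last: the day 14 library labelled GGI is coloured like the GQ columns, and the day 14 library labelled GQ is pale in most rows.

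Among the higher members, 15 were close to silent outside GQ, at under 0.1 CPM in each of the 26 libraries of the other cultivars. Over these 15, the 6 GQ libraries held 8501 reads and the 26 others together held 57. For 7 of the 15, the other cultivars had no read at all. Their gaps ran between 1.01 and 6.13, and 6 of them exceeded 1 CPM in all 6 GQ libraries. This grouping by level, like those that follow, was made after the values were seen.

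V2_07g009440.1.01 had the largest gap, 6.13. It stood at 9.27, 9.35 and 8.53 CPM in the GQ libraries of day 0 (mean 9.05 ± 0.45, SD, n = 3), 3.22 CPM in the used GQ library of day 7, and 6.20 and 4.27 CPM in the 2 used GQ libraries of day 14. Of the 26 used libraries of the other cultivars, 25 held no read and OP day 0 replicate 3 held 2 reads, or 0.0442 CPM. Pooled, the 1831 GQ reads against those 2 gave a ratio of 3763, a description of the libraries that ranked this member first. Each of the 6 used GQ libraries was thus above each of the 26 used others, and the GQ level was highest on day 0.

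V2_04g010810.1.01, of gap 5.94, ran a different course with time. It had 4.29, 5.30 and 5.17 CPM in the GQ libraries of day 0 (mean 4.92 ± 0.546, SD, n = 3), 9.03 CPM in that of day 7, and 3.93 and 2.13 CPM in those of day 14. All 26 other libraries were at 0 reads, which allows up to 0.00271 CPM over them (3 reads). Against that floor, the 1356 GQ reads were at least 1858-fold higher.

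The members of ranks 3 to 7 were likewise close to silent outside GQ. The rank 4 member had 6.75, 5.21 and 5.30 CPM in GQ on day 0, 1.86 CPM on day 7, and 2.85 and 3.24 CPM on day 14, with no read elsewhere. The rank 5 member had 4.94, 5.45 and 4.51 CPM on day 0, 2.67 CPM on day 7, and 1.58 and 1.97 CPM on day 14, also with no read elsewhere. In these and in the members of ranks 1, 3, 6 and 7, the used GQ library with the lowest level was one of day 7 or day 14. Further down the list the levels were lower: the rank 16 member held between 0.0445 and 0.275 CPM in the 6 GQ libraries and no read in the others.

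**Figure D3:**
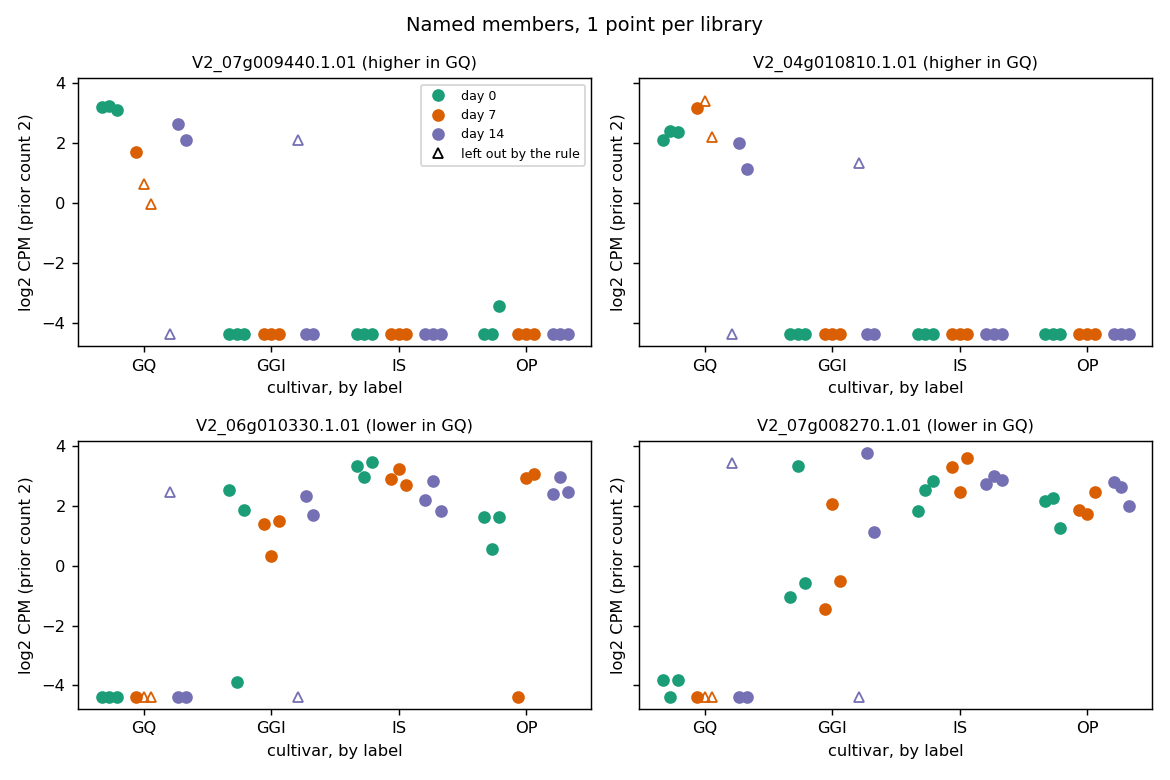
Level of the 4 named members as log2 CPM (prior count 2; a library at 0 reads lies at the bottom of the axis) by labelled cultivar, with 1 point per library, coloured by day of storage; open triangles are the 4 libraries left out when the members were chosen. In the upper panels filled GQ points lie above all filled points of the other cultivars, and in the lower panels at or near the bottom; the open day 14 triangles of GQ and GGI are exchanged in all 4 panels.

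At the other end, 6 of the 38 lower members were under 0.1 CPM in all 6 used GQ libraries. They held 18 reads there over the 6 gene models, against 16569 in the other cultivars. Silence in GQ was seldom matched by expression everywhere else, since 1 of the 6 exceeded 0.1 CPM in all 26 other libraries.

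V2_06g010330.1.01 had no read in any of the 6 GQ libraries, against 5891 reads in the others, which put GQ at least 478-fold lower. IS libraries held 10.0, 7.69 and 11.0 CPM on day 0, 7.34, 9.33 and 6.43 CPM on day 7, and 4.49, 7.09 and 3.52 CPM on day 14. GGI held 5.74, 0.0195 and 3.62 CPM on day 0, 2.58, 1.20 and 2.76 CPM on day 7, and 4.97 and 3.18 CPM in the used libraries of day 14. OP held between 1.43 and 8.26 CPM in 8 libraries and no read in day 7 replicate 1, the library with 71.0% of reads outside gene models. IS was the highest cultivar on day 0 and overlapped OP on days 7 and 14, and a single GGI library, replicate 2 of day 0, was near the GQ level.

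V2_07g008270.1.01 had all 6 GQ libraries beneath every other. GQ held 0.0230, 0 and 0.0225 CPM on day 0 and no read in the used libraries of days 7 and 14. IS held between 3.51 and 12.2 CPM and OP between 2.34 and 6.93 CPM. Within GGI the libraries fell far apart: 0.433, 10.1 and 0.628 CPM on day 0, 0.322, 4.15 and 0.648 CPM on day 7, and 13.4 and 2.15 CPM on day 14. Replicate 2 was the high GGI library on each day, and the numbers do not pair the libraries by the labels.

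Libraries of 1 cultivar disagreed in this on-or-off way for 27 of the 100 members, 16 of them higher in GQ. In these, some libraries of another cultivar were under 0.1 CPM and others of that cultivar over 1 CPM. The same count over all gene models was not made, so whether it is particular to the members is not known. OP did so for 22 members, GGI for 10 and IS for 5. In 20 of the 22, OP day 7 replicate 1 had no read, and without that library the counts were 6 for OP and 15 in all. The rank 11 member is an example: it had 2.73, 3.61 and 2.27 CPM in GQ on day 0, against 0, 4.20 and 0 CPM in GGI. The rank 13 member had 0, 6.43 and 6.40 CPM in GQ on day 0, against 0, 5.56 and 0 CPM in GGI. GGI day 0 replicate 2 was the GGI library of day 0 that carried both, while GQ day 0 replicate 1 lacked the rank 13 member. Later, GGI day 7 replicate 2 held 1.59 CPM of the rank 11 and 0.235 CPM of the rank 13 member. GGI day 14 replicate 2 held 4.69 CPM of the rank 11 member and no read of the rank 13 member. The other used GGI libraries of days 7 and 14 held no read of either. No library of IS or OP, and neither of the other GGI libraries of day 0, held a read of either member.

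Between the extremes stood 59 members, 37 higher and 22 lower in GQ, with gaps between 0.32 and 3.30. The rank 12 member was low but present in OP: it had 2.98, 2.98 and 2.67 CPM in GQ on day 0, 1.41 CPM on day 7, and 2.08 and 1.94 CPM on day 14, against 0 to 0.229 CPM in OP and no read in GGI or IS. The rank 15 member was similar with a weak signal in both IS and OP: GQ held 0.803, 1.56 and 0.876 CPM on day 0, 1.81 CPM on day 7, and 0.707 and 0.576 CPM on day 14, against 0 to 0.282 CPM in IS, 0 to 0.173 CPM in OP and no read in GGI. In both, the 6 GQ libraries lay above all others.

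The rank 17 member, lower in GQ, showed the converse, with OP as the nearest cultivar on all days. It had 0, 0 and 0.112 CPM in GQ on day 0 and no read on days 7 and 14, against 1.04 to 10.1 CPM in GGI, 1.21 to 2.37 CPM in IS and 0 to 5.42 CPM in OP. OP libraries thus reached both the GQ level and the IS level. The rank 22 member had 0.344, 0.334 and 0.0449 CPM in GQ on day 0, 0.149 CPM on day 7, and 0.0416 and 0.312 CPM on day 14, against 0.296 to 2.77 CPM in the others. Its GQ and GGI libraries overlapped on day 0, where GGI held 0.296, 1.34 and 0.502 CPM.

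The abundant members differed by degree. The 20 members that averaged 10 CPM or more, 10 in each direction, had gaps between 0.32 and 0.77. The rank 36 member was one with an even pattern: it had 55.7, 47.9 and 51.5 CPM in GQ on day 0, 63.4 CPM on day 7, and 53.9 and 41.4 CPM on day 14, against 75.0 to 204 CPM over all 26 other libraries. Its day 0 means were 51.7 ± 3.93 CPM in GQ, 117 ± 7.15 in GGI, 87.9 ± 5.27 in IS and 104 ± 2.84 in OP (SD, n = 3 each). GGI, IS and OP overlapped one another from day 7 on, and GQ overlapped none of them.

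All 6 used GQ libraries lay beyond all 26 others in 2 of the 20, the rank 36 member and the rank 69 member. The rank 69 member held 57.3 to 83.2 CPM in them, against 23.0 to 52.5 CPM in the used libraries of the others. In the other 18, GQ libraries overlapped those of another cultivar. The rank 41 member, higher in GQ, had 45.0, 30.7 and 49.6 CPM in GQ on day 0, 40.9 CPM on day 7, and 34.0 and 33.5 CPM on day 14, against 0.276 to 32.3 CPM in the used libraries of the others. A single OP library of day 0, at 32.3 CPM, exceeded the lowest GQ library. The rank 97 member had a mean of 531 ± 72.4 CPM in GQ on day 0, against 227 ± 98.8 in GGI, 193 ± 33.2 in IS and 379 ± 37.4 in OP (SD, n = 3 each). Its GQ libraries of day 14, at 378 and 665 CPM, overlapped those of GGI at 418 and 372 CPM.

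The cultivar nearest to GQ differed between days, which is a description, as the same counts over all gene models were not made. The OP mean of day 7 includes replicate 1, with 71.0% of reads outside gene models. Its part in the counts of day 7 was not tested. On day 0, OP was the nearest for 35 of the 62 higher members, IS for 20 and GGI for 7. For the 38 lower members it was OP for 24, GGI for 9 and IS for 5. On day 7, GGI was nearest for 31 of the higher members, OP for 20 and IS for 11, and among the lower members OP for 19, GGI for 11 and IS for 8. On day 14, OP was nearest for 36 of the higher members, GGI for 18 and IS for 8, and among the lower members GGI for 19, OP for 15 and IS for 4. The nearest cultivar was the same on all days in 34 members, of which 23 had OP, 7 GGI and 4 IS. For 7 higher members the other cultivars had no read on any day, and some others of the 62 had none on single days. There GGI, IS and OP were tied, and the cultivar counted as nearest was arbitrary. The rank 91 member shows how near OP could come: GQ held 5.83, 9.61 and 10.9 CPM on day 0 and OP 7.26, 5.67 and 7.14 CPM, while the used libraries of GGI and IS held at most 0.223 CPM on any day. On day 7, GQ held 6.38 CPM and OP 0, 8.19 and 10.8 CPM, so the GQ mean was over that of OP there only with OP day 7 replicate 1 at 0 reads. Its gap of 0.33 over OP is small beside the distance of both from GGI and IS.

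Steadiness over storage was a property of the average over cultivars. Only 7 members changed by under 0.7 log2 units within each of the 4 cultivars at both days. The median over members of the largest change within a cultivar was 1.34. It was 1.82 over the 21895 gene models past the filter. The 7 included the member of rank 3, which held 3.21, 2.96 and 3.05 CPM in GQ on day 0, 1.99 CPM on day 7, and 2.60 and 1.92 CPM on day 14, and the rank 36 member described above. The change of the GQ mean between day 0 and day 14 lay between -3.63 and 1.45, and 69 members stayed within the limit in GQ. The rank 47 member moved most: it had 77.0, 30.6 and 24.2 CPM in GQ on day 0 and 2.22 and 4.51 CPM on day 14. In OP it changed by -4.19 at day 7 and -3.80 at day 14, and in GGI by 3.75 and 3.82, so that opposite changes met in a steady average. OP day 7 replicate 1 had no read of it, against 9.28 and 2.09 CPM in the other OP libraries of day 7.

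GQ day 7 replicates 2 and 3 had no part in the choice of members, and they give a comparison of GQ with the others that is separate on the GQ side. The 9 day 7 libraries of GGI, IS and OP did take part. The pair as a whole stood far from other libraries: of all 21989 gene models tested, 23.4% were called higher and 29.9% lower in it than in the other cultivars at day 7 (edgeR quasi-likelihood test, Benjamini-Hochberg adjusted p under 0.05). Of the 36 higher members that did not pass the filter through GQ alone, 9 were called higher, near the background of 23.4%, and 3 lower. Of the 38 lower members, 21 were called lower, against the 29.9%, and 2 higher. The other 26 higher members passed the filter through GQ alone, so they could come out higher or not be seen, and the 16 of them called higher are a description. On the log2 scale the median pooled ratio was 0.44 over the 36 higher members and -2.23 over the 38 lower ones, beside -0.42 over all gene models. The ratio was above 0 in 22 of the 36 and below 0 in 31 of the 38, against 41.6% above and 58.4% below over all.

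Both libraries of the pair lay above all 9 others in 4 of the 36 higher members, against 12.6% of all gene models, and in 10 of the 26 that passed the filter through GQ alone. They lay below all 9 in 12 of the 38 lower members, against 13.4% of all. No higher member lay below all 9 and no lower member above. Without OP day 7 replicate 1 and GGI day 7 replicate 2, the libraries of the other side with many reads outside gene models, the pair lay above the remaining 7 in 10 of the 36, against 21.4% of all gene models. It lay below them in 23 of the 38 lower members, against 30.2% of all. The pair shares that feature, at 31.6% and 30.1%, and its part in these calls was not tested.

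**Figure D4:**
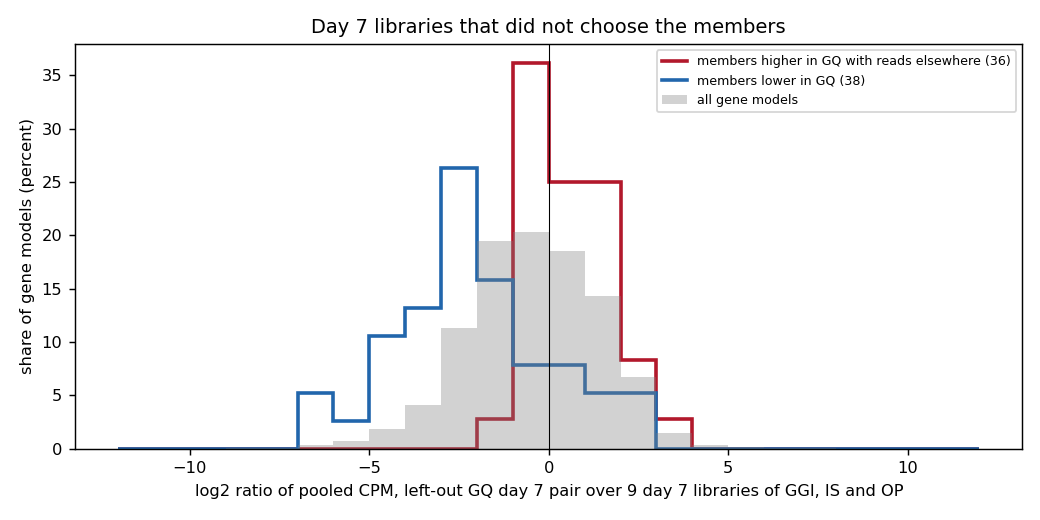
Distribution of the log2 ratio of pooled CPM in the left-out GQ day 7 pair over the 9 day 7 libraries of GGI, IS and OP, in bins of 1 log2 unit, as percent of gene models, for the 36 higher members that did not pass the filter through GQ alone (red), the 38 lower members (blue) and all gene models (grey). The red line lies mostly between -1 and 2, the blue line peaks between -3 and -2, and the medians are 0.44, -2.23 and -0.42.

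V2_07g009440.1.01 held 1.51 and 0.924 CPM in the pair and no read in the 9 others. V2_04g010810.1.01 held 10.5 and 4.51 CPM, again against no read. The members were chosen with these 9 at or near 0, so no test is given for either. V2_06g010330.1.01 had no read in the pair and 2298 in the 9 others, at least 75.6-fold lower (edgeR adjusted p = 8.33e-04). V2_07g008270.1.01 had no read in the pair and 2081 in the others, at least 68.4-fold lower (edgeR adjusted p = 4.80e-04). The pair was thus without reads of these lower members.

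Not all members close to silent outside GQ were seen in the pair. Of the 15, 8 exceeded 0.1 CPM in replicate 2 and 10 in replicate 3, and 7 and 5 of them had no read there. The rank 16 member had no read in either, which allows up to 0.0759 CPM over the pair (3 reads), within the 0.0445 to 0.275 CPM of the GQ libraries that set membership.

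Among the abundant members, 4 of the 10 higher ones were called higher, beside 23.4% of all gene models, and 7 of the 10 lower ones lower, beside 29.9%. The rank 36 member had 32.6 and 41.3 CPM in the pair, against 88.8 to 204 CPM in the 9 others, a log2 difference of -1.88 ± 0.243 (SE; edgeR adjusted p = 1.37e-06). For the rank 41 member the pair had 52.1 and 81.6 CPM, against 0.276 to 27.6 CPM, a log2 difference of 1.77 ± 0.457 (SE; edgeR adjusted p = 0.00228). Some members had the opposite side. The rank 69 member, with 58.9 to 83.2 CPM in the GQ libraries of days 0 and 7 that set membership, had 26.8 and 9.24 CPM in the pair, against 23.0 to 52.5 CPM in the others, a log2 difference of -0.95 ± 0.277 (SE; edgeR adjusted p = 0.00590). The rank 78 member, lower in GQ by choice, had 30.1 and 31.1 CPM, against 9.80 to 34.7 CPM, a log2 difference of 1.01 ± 0.316 (SE; edgeR adjusted p = 0.00952).

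The left-out day 14 libraries, 1 labelled GGI and 1 labelled GQ, had each other's levels at most members. They were left out of the choice because their levels went against their labels, so the counts that follow describe that pattern again and support nothing. The library labelled GGI lay nearer to the mean of the other GQ than of the other GGI libraries of day 14 in 85 of the 100 members, 53 higher and 32 lower, against 60.3% of all gene models. The library labelled GQ lay nearer to the other GGI libraries in 83 members, 54 higher and 29 lower, against 63.8% of all. Of the 63 members at least 2-fold apart between GQ and GGI on that day, 55 and 52 did so, which is 87.3% and 82.5%, against 70.2% and 78.3% of all 3512 such gene models. The labels were kept and neither library was moved to another group.

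**Figure D5:**
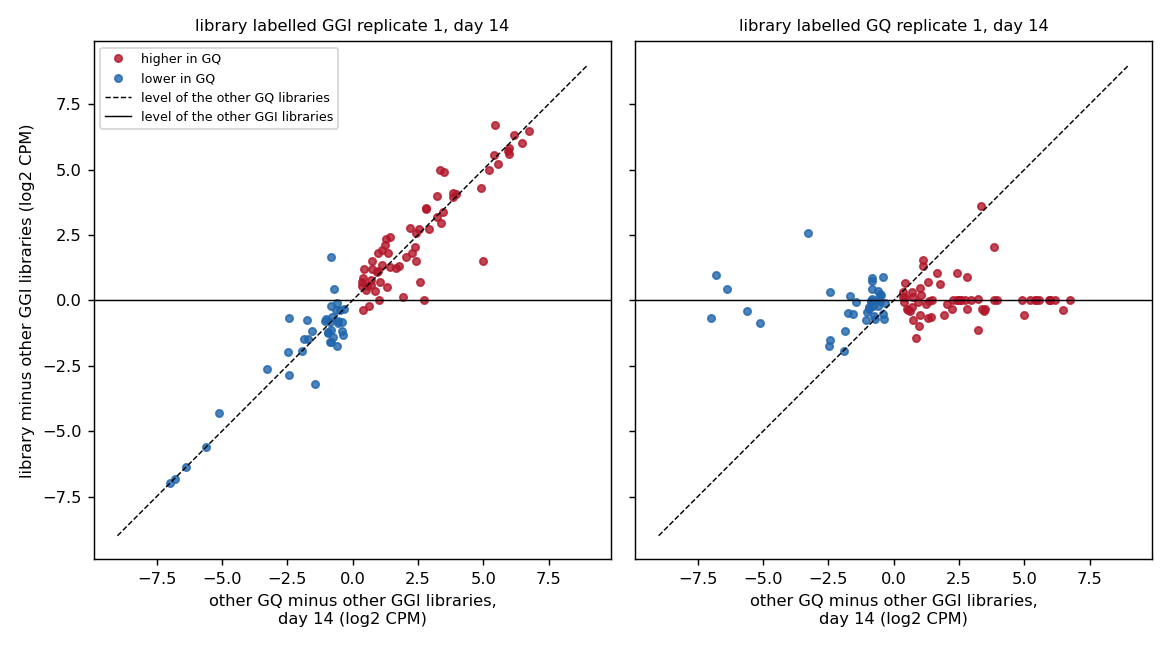
Level of each of the 100 members in the day 14 library labelled GGI replicate 1 (left) and the day 14 library labelled GQ replicate 1 (right), minus the mean of the other 2 GGI libraries, against the difference of the other GQ minus the other GGI libraries of day 14 (log2 CPM). Points on the dashed diagonal have the level of the other GQ libraries and points on the solid line that of the other GGI libraries; on the left 85 members lie nearer to the diagonal, and on the right 83 lie nearer to the solid line.

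The reads were most one-sided in the near-silent classes. Over the 15 members silent outside GQ, the library labelled GGI held 596 reads, against 4 in the other 2 GGI libraries of day 14. The library labelled GQ held 9 reads, against 2017 in the other 2 GQ libraries. Over the 6 members silent in GQ, the library labelled GGI held 5 reads, against 926 in the other GGI libraries, and the library labelled GQ held 809, against 3 in the other GQ libraries.

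Of the named members, V2_07g009440.1.01 had 141 reads in the library labelled GGI, against none in the other GGI libraries. In the library labelled GQ it had no read, against 476 in the other GQ libraries, at least 71.0-fold lower. V2_04g010810.1.01 had 82 reads in the library labelled GGI, against none, and none in the library labelled GQ, against 278. V2_06g010330.1.01 had no read in the library labelled GGI, against 255, and 218 reads in the library labelled GQ, against none in the other GQ libraries. V2_07g008270.1.01 had no read in the library labelled GGI, against 458, and 431 in the library labelled GQ, against none. No test is given for these members, since each comparison has a lone library that was left out for going against its label.

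The rank 12 member had 73 reads in the library labelled GGI, against none in the other GGI libraries. It had none in the library labelled GQ, against 181 in the other GQ libraries. The rank 91 member had 342 reads in the library labelled GGI, against 7 in the other GGI libraries. In the library labelled GQ it had 3, against 1279 in the other GQ libraries. No test is given for either member, for the same reason as for the named members. Over all members, few passed the test with 1 library on one side. Called higher in the library labelled GGI was 1 of the 36 higher members that did not pass the filter through GQ alone, against 0.364% of all gene models. Of the other 26, where few or no reads stood on the compared side, 5 were called higher. Called lower were 0 of the 38 lower members, against 0.223% of all; 7 of them had an unadjusted edgeR p under 0.05, and DESeq2 called 6. In the library labelled GQ, 2 of the 62 higher members were called lower, against 0.182% of all, and 2 of the 38 lower members were called higher, against 0.218%, both against no read. Leaving out either of the other GGI libraries left 0 or 2 calls in the first comparison, and leaving out either of the other GQ libraries left 0 in the second. The median pooled log2 ratio in the library labelled GGI was 1.24 over the same 36 higher and -1.35 over the lower members, beside -0.02 over all. In the library labelled GQ it was -1.20 and 0.75, beside -0.06 over all. For the library labelled GGI, ratios had these signs in 32 of the 36 and 35 of 37 lower members. Over all gene models, 49.0% were above 0 and 51.0% below. For the library labelled GQ, ratios had these signs in 33 of the 36 and 33 of 35. Over all gene models, 45.6% were above 0 and 54.4% below. The 62 higher members in the calls for the library labelled GQ include the 26 that passed the filter through GQ alone. The other GQ libraries of day 14, on the compared side there, took part in the choice of members. Both left-out libraries were set aside because their levels went against their labels. The calls, ratios and signs in either thus support nothing, also beside the shares of all gene models.

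The identifiers fall into 17 numbered groups and a set on scaffolds. Groups 5 and 15 held 12 members each, beside 6.83% and 6.44% of the 21895 gene models past the filter. Scaffolds held 5 members, all higher in GQ, beside 0.644% of the same gene models. Group 1, with 10.8% of all gene models, held 4 members. In 3 cases a pair of members stood next to each other in the order of identifiers, at ranks 7 and 10, 54 and 60, and 3 and 15. Both of each pair were higher in GQ. The same count for other sets of gene models was not made. The pair of ranks 7 and 10 shared its pattern: GQ day 0 libraries held 4.57, 4.07 and 3.82 CPM of one and 1.40, 1.02 and 0.966 CPM of the other, and no used library of the other cultivars exceeded 0.0506 CPM of either. Neighbouring or near-identical gene models can share reads, and whether these did was not tested.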

How the data were processed

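The authors deposited raw read counts per gene model, 1 table for each of 36 libraries. The tools cutadapt and STAR are named, per the submitters' processing notes. Not given in the sources used here are the counter, build, annotation and strand setting. Reads of overlapping or near-identical gene models are thus uncertain. The 5 summary rows per table (13.9% to 85.2% of reads, median 16.0%) were left out.

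Membership used gene models with 10 or more reads in 3 or more of 32 libraries, TMM scaling (edgeR 4.0.16, R 4.3.3) and log2 CPM with a prior count of 2. The limit on change was read as applying to the mean over cultivars. Members and lists were chosen with earlier results of these data known.

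For tests, 1 edgeR quasi-likelihood fit over all 36 libraries had 15 means: 12 labelled groups without the left-out libraries, the left-out GQ day 7 pair, and each left-out day 14 library. It was tested on simulated data. P-values were Benjamini-Hochberg adjusted over 21989 gene models, called under 0.05, and measure the spread between these libraries; a lone library is assumed to vary like the rest. Pooled ratios set a side without reads to 3 reads, and floors cover counting error only. Alternatives were DESeq2 1.42.0, other scalings, filters and priors, a replicate block and leaving out libraries. All 36 pairs of replicates differed by more than sampling noise (chi-square per degree of freedom at least 53.1). Identifiers are printed for the 2 higher and 2 lower members with the largest gap.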

Additional observations from a re-analysis of the deposited data

How the results depend on the processing

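The choice of members depended on the libraries and on the limit on change. Of the 100 members, 41 remained with all 36 libraries, 39 with no limit on change and 7 with the limit applied within each cultivar. Other scalings, prior counts and filters kept 77 to 100, and leaving out 1 used library kept 74 (GQ day 14 replicate 3) to 96, with 81 without OP day 7 replicate 1. GQ day 7 replicate 1 could not be left out.

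In the left-out GQ day 7 pair, the 46 members called in their own direction (16 of them having passed the filter through GQ alone) became 23 when the fit held the day 7 libraries alone, with 23 members without an adjusted p there, and calls over all gene models were 6595, against 11712. Other alternatives gave 34 to 53, among them 34 and 35 with 1 library of the pair left out. The count outside the range of the others was 26. It was 43 without OP day 7 replicate 1 and GGI day 7 replicate 2, chosen after seeing the data. In both counts, 10 members had passed the filter through GQ alone, so they could lie above or not be seen. Without those libraries the shares of all gene models also went up, to 21.4% above and 30.2% below. Leaving out 1 library gave a count of 26 to 35.

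Calls in the day 14 libraries were fragile. For the library labelled GGI, 6 became 12 with DESeq2, 3 with a replicate block and 0 to 2 with 1 library left out; calls over all gene models, 129, became 566, and 64 to 203. For the library labelled GQ, 4 became 7, 1 and 0, and 88 became 429, and 47 without GQ day 14 replicate 3. The named members had no read on 1 side of each comparison of the left-out libraries, so no alternative could turn their signs. The replicate block gave 48 in the GQ day 7 pair. The labels do not pair libraries by replicate number. Over 198 same-numbered pairs, deviations from group means had a median correlation of 0.00111, between -0.531 and 0.632, and 43 pairs were over 0.1. These pairs include those across cultivars, so the median cannot exclude a link within a cultivar. The cause of these shifts was not tested. Of the members, 46 averaged under 1 CPM, where few reads stand behind a value.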

Other observations

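GQ also lay beyond every other cultivar on all 3 days for 690 gene models that changed on average by 0.7 log2 units or more with storage and so were not members. In 350 of them GQ was highest. Of the 690, 191 had a gap above the smallest gap of a member, and the largest was 5.00. At day 14, the mean over cultivars was up by the limit or more in 259 and down in 325.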
